A study of Rattus norvegicus with 12 samples.

Results

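UDP-glucuronosyltransferases are membrane enzymes that join glucuronic acid to drugs, steroids, bile acids and bilirubin. Described here are 5 rat genes of this family, Ugt2b7, Ugt1a6, Ugt2b15, Ugt2b35 and Ugt2b37, in kidney cortex after cephaloridine, a cephalosporin antibiotic known to injure the proximal tubule. They were chosen by name, through the gene names and accessions of the array annotation, and are 5 of 20760 genes tested. Earlier results of these data were known when they were chosen. The array held 6 of its 41012 probes under these names. An accession tied 1 probe to each gene; the array itself names them LOC286989 (Ugt2b7), Ugt1a6, Ugt2b3 (Ugt2b15), Ugt2b4 (Ugt2b35) and Ugt2b5 (Ugt2b37). The sixth probe also carries the name Ugt2b5, but its name and accession point to different genes of the family, so it was assigned to neither.

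The tissue came from male Fisher 344 rats, 8 weeks old, which had received saline (control, 0 mg/kg) or cephaloridine in saline at 150 (low), 300 (middle) or 600 mg/kg (high) as 1 intravenous injection. All animals were killed at 24 h, so the data hold 1 time point. Each group had 3 animals, and the RNA of each animal was labelled in 1 colour and hybridised to 1 Agilent array. The study set out to profile doses below and within the toxic range.

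The 12 arrays were alike in brightness: their median signals lay between 65.11 and 74.77 and the share of probes well above background was 59.22% to 63.23%. All 12 of the 12 proximal tubule markers listed for the labelled cortex were well above background in at least 1 group. Their summed signal, in multiples of the 75th percentile of the array, was 649 to 675 in controls, 642 to 676 at 150 mg/kg, 613 to 622 at 300 mg/kg and 470 to 488 at 600 mg/kg. Controls and animals at 600 mg/kg never shared a slide, so slide and dose cannot be told apart for these groups without a chain of other arrays. That chain runs from low 1, on the slide of the controls, through 2 slides with a low and a middle array each, to middle 3, on the slide of the high animals. Values with slide as a blocking factor (the slide-blocked fit) follow this chain and are given for Ugt2b7. Elsewhere they are given where they change a reported call or direction, and for some other results. For single genes outside the family this fit was read at most at 600 mg/kg against control, and only for some of those named. Their calls at 150 and 300 mg/kg therefore carry no such check, nor do the counts over gene lists and markers at any dose. Over all tested genes the block lowered the calls at 600 mg/kg against control from 7191 to 578.

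In this family the Ugt1a enzymes arise from a single gene complex in which each first exon is spliced to common later exons, while Ugt2b enzymes are encoded by separate genes that lie side by side. UGT1A6 is known for small planar phenols, and UGT2B enzymes for steroids, bile acids and many drugs; in humans UGT2B7 conjugates morphine and UGT2B15 conjugates androgens. The reaction takes place in the endoplasmic reticulum with UDP-glucuronic acid as the sugar donor, and in the kidney the proximal tubule is its main site.

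The RefSeq annotation (GRCr8) places Ugt2b15, Ugt2b37, Ugt2b35 and Ugt2b7 in this order, with no other Ugt2 gene between them, on chromosome 14. Ugt1a6 lies on chromosome 9, where all 8 protein-coding Ugt1a genes share 1 annotated end. Because members can share sequence, a probe may also collect signal from a near relative, and the probe sequences were not used here.

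The 250 bases before each annotated start are shown because 4 of the 5 genes carry a common stretch there. They are chr14:21251285-21251534 for Ugt2b7, chr14:21208191-21208440 for Ugt2b35, chr14:21122616-21122865 for Ugt2b15, chr14:21171886-21172135 for Ugt2b37 and chr9:96194768-96195017 for Ugt1a6, all on the plus strand. Capitals mark the stretch shared by the 4 Ugt2b genes and, in Ugt1a6, matches to the motifs named next.
Ugt2b7: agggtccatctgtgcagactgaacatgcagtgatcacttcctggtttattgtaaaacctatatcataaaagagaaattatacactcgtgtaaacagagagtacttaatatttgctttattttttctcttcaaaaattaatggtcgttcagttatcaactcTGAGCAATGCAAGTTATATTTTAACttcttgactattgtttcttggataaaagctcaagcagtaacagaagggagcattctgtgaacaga
Ugt2b35: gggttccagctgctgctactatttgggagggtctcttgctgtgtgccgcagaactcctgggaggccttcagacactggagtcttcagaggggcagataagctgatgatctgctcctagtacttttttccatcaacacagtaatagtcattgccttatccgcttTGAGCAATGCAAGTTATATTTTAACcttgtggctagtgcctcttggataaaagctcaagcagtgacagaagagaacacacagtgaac
Ugt2b15: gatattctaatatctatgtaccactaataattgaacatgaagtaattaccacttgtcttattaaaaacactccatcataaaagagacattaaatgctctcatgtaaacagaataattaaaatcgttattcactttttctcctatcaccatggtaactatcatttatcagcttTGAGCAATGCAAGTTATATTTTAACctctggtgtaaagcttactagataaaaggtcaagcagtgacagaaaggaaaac
Ugt2b37: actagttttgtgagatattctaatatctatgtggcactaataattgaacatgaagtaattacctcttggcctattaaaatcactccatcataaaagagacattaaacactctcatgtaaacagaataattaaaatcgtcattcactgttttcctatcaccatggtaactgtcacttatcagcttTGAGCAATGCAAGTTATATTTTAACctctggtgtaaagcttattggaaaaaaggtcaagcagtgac
Ugt1a6: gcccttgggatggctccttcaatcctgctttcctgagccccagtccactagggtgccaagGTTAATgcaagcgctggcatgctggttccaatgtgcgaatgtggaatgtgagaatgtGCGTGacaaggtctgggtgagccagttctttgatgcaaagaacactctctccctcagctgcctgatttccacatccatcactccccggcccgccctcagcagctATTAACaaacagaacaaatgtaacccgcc

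The shared stretch is the longest run common to the 4 Ugt2b windows, TGAGCAATGCAAGTTATATTTTAAC, 25 bases that begin 66 to 90 bases before the start. It was found in 7 of 33469 rat promoter windows of the same length (0.0209%), the other holders being Ugt2b, Ugt2b7l1 and LOC134478834. Over the aligned windows Ugt2b15 and Ugt2b37 were 84.4% identical, whereas Ugt2b7 and Ugt2b35 were 64.1% identical and Ugt1a6 matched each Ugt2b window at 38.5% to 39.5%. On both strands, TGACNNNGC (the core of the antioxidant response element bound by NRF2) had no match in the 5 windows, against 10.1% of all windows. GCGTG (the core bound by the aryl hydrocarbon receptor) matched once in Ugt1a6, and 25.9% of all windows hold it. GTTAAT (part of the HNF1 site) matched at 2 places in Ugt1a6, 1 on each strand, against 6.45% of windows with a match. None of these matches overlapped. A match is only a description of the letters.

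Signals are given as log2 relative to the 75th percentile of the array. A level of 0 equals that percentile. Ugt2b7 stood at -1.86, -1.38 and -1.10 on the 3 control arrays. It stood at 1.60, 1.59 and 2.07 at 150 mg/kg and at 3.52, 3.50 and 3.00 at 300 mg/kg. At 600 mg/kg the 3 arrays gave 3.86, 3.71 and 3.89. No array of a dosed group overlapped the controls, and the 4 groups did not overlap each other. Ugt2b7 therefore lay below the 75th percentile in every control and above it in every dosed animal.

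Ugt2b7 rose at each dose against control. The rise was 9.19-fold at 150 mg/kg (log2 3.20 ± 0.21, SE, n = 3 per group, adjusted p = 0.000408 by limma with Benjamini-Hochberg adjustment). It was 27.6-fold at 300 mg/kg (log2 4.79, adjusted p = 7.53e-06) and 38.5-fold at 600 mg/kg (log2 5.27, 95% interval 4.81 to 5.72, adjusted p = 6.01e-07). In bulk tissue, more cells that carry a transcript and more transcript per cell cannot be told apart. By p-value Ugt2b7 ranked 1 of 20760 genes at both 150 and 300 mg/kg and 4 at 600 mg/kg. By size of rise it ranked 2, 1 and 3 at 150, 300 and 600 mg/kg.

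Between neighbouring doses the step of Ugt2b7 at 300 over 150 mg/kg was 3.0-fold (log2 1.58 ± 0.21, adjusted p = 0.0171). The step at 600 over 300 mg/kg was 1.4-fold (log2 0.48, 95% interval 0.03 to 0.94) and did not pass (adjusted p = 0.121), although the 3 high arrays lay above the 3 middle arrays. At 600 over 150 mg/kg, a comparison added after the data were seen, Ugt2b7 rose 4.19-fold (adjusted p = 0.000111). In the slide-blocked fit the rises against control were 3.05, 4.72 and 5.54 on the log2 scale at 150, 300 and 600 mg/kg, each past the threshold (adjusted p = 0.0245, 0.00865 and 0.00862). Between doses that fit gave 1.68 at 300 over 150 mg/kg (adjusted p = 0.0464), 0.82 at 600 over 300 mg/kg (adjusted p = 0.102) and 2.49 at 600 over 150 mg/kg (adjusted p = 0.0134).

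The call at 150 mg/kg was lost only when the fit was limited to the low and control arrays (adjusted p = 0.105; range over 26 alternatives 2.38e-05 to 0.105). The call between 300 and 150 mg/kg was lost without low 2 (adjusted p = 0.0898) and without middle 2 (adjusted p = 0.0965), as well as in 4 other settings. Its adjusted p ranged from 0.00232 to 0.181 over 26 alternatives, with changes of 1.46 to 1.75 on the log2 scale.

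**Figure D1:**
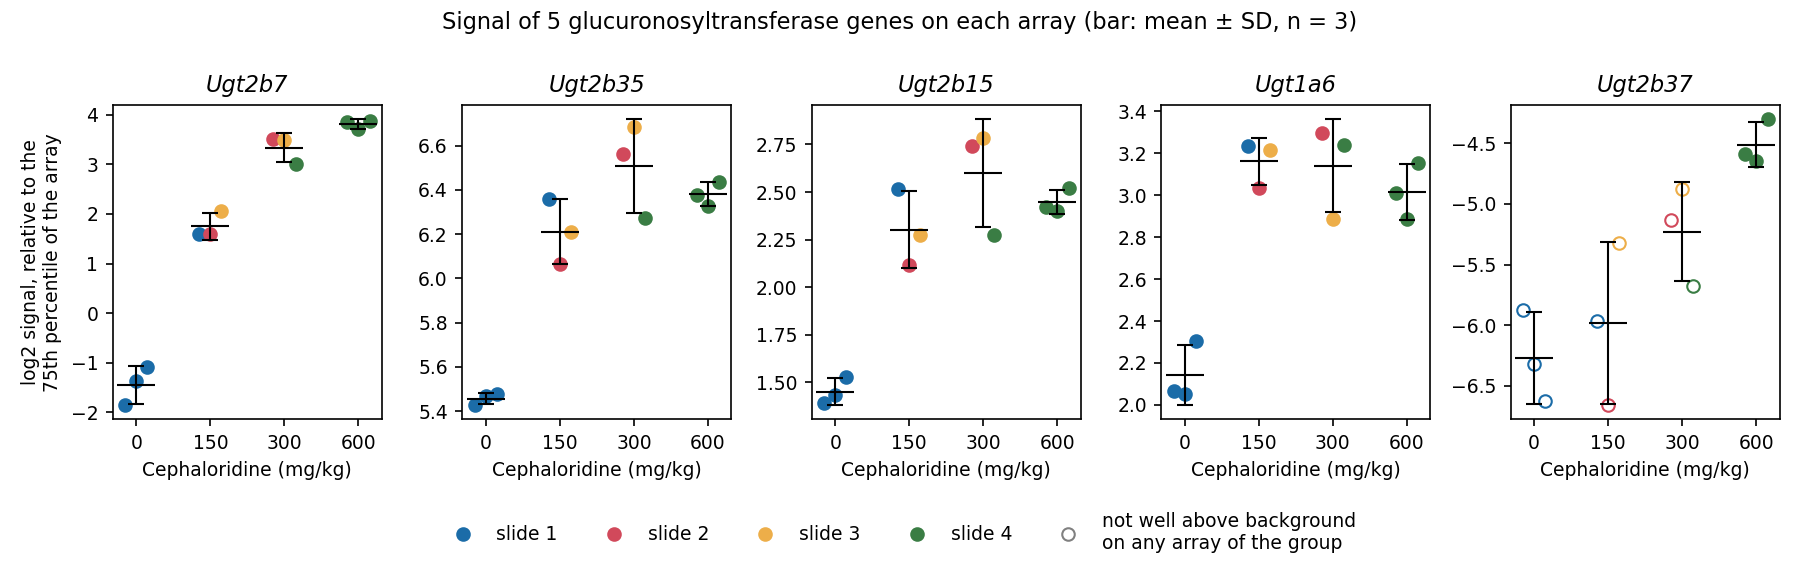
Log2 signal relative to the 75th percentile of the array (y axis, own range per panel) on each of the 12 arrays, by dose of cephaloridine in mg/kg (x axis), for the 5 genes. Colours give the slide, bars the mean ± SD of 3 arrays, and open points a group in which no array was well above background. Ugt2b7 lies between -1.86 and -1.10 in controls and between 3.71 and 3.89 at 600 mg/kg, and the other genes span narrower ranges.

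Ugt2b35 and Ugt2b15 moved almost as one across the arrays. Ugt2b35 stood at 5.43, 5.47 and 5.48 in controls, 6.36, 6.07 and 6.21 at 150 mg/kg, 6.56, 6.69 and 6.27 at 300 mg/kg, and 6.38, 6.33 and 6.44 at 600 mg/kg. Every dosed animal lay above every control, while the 3 dosed groups overlapped one another. Against control Ugt2b35 rose 1.69-fold at 150 mg/kg (log2 0.75 ± 0.10, adjusted p = 0.0339), 2.07-fold at 300 mg/kg (log2 1.05, adjusted p = 0.000889) and 1.9-fold at 600 mg/kg (log2 0.92, adjusted p = 0.000166).

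Ugt2b15 gave 1.39, 1.43 and 1.53 in controls, 2.52, 2.11 and 2.27 at 150 mg/kg, 2.74, 2.78 and 2.27 at 300 mg/kg, and 2.42, 2.40 and 2.52 at 600 mg/kg. Its dosed arrays also all lay above the controls and overlapped one another. It rose 2.22-fold at 300 mg/kg (log2 1.15 ± 0.13, adjusted p = 0.00203) and 2.0-fold at 600 mg/kg (log2 0.998, adjusted p = 0.000504). At 150 mg/kg the difference was 1.8-fold (log2 0.85, 95% interval 0.55 to 1.15) and did not pass (adjusted p = 0.071).

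For both genes the rises were larger in the slide-blocked fit. At 600 mg/kg that fit gave 1.495 for Ugt2b35 (adjusted p = 0.00402) and 1.81 for Ugt2b15 (adjusted p = 0.0051) on the log2 scale. At 300 over 150 mg/kg neither passed without the block, with log2 differences of 0.30 for each (limma adjusted p = 0.205 for Ugt2b35 and 0.311 for Ugt2b15). With the block both passed there, at 0.49 (adjusted p = 0.0251) and 0.57 (adjusted p = 0.0386). At 600 against 300 mg/kg the log2 difference was -0.13 for Ugt2b35 (95% interval -0.35 to 0.10) and -0.15 for Ugt2b15 (95% interval -0.45 to 0.15), neither past the threshold. Both turned positive, 0.11 and 0.17, in the slide-blocked fit, so no direction is given between these doses. At 600 over 150 mg/kg the log2 differences were 0.17 for Ugt2b35 (adjusted p = 0.245) and 0.15 for Ugt2b15 (adjusted p = 0.452), and in the slide-blocked fit 0.59 (adjusted p = 0.0127) and 0.74 (adjusted p = 0.0134). The slide-blocked fit was the 1 alternative of 26 in which either gene passed there, with adjusted p ranging from 0.0127 to 0.555 for Ugt2b35 and from 0.0134 to 0.822 for Ugt2b15.

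The low-dose calls were the least stable. For Ugt2b35 at 150 mg/kg the call held in 13 of 26 alternatives, with changes between 0.68 and 0.90 (adjusted p 0.00305 to 0.195 over all 26). It was lost without the filter on dim probes (0.106), with only the compared groups (0.108), with the replicate block (0.0963) and with scan day as a block (0.0895). It was also lost without any 1 of 9 arrays, the highest adjusted p being 0.195 without control 1. The 9 arrays were controls 1, 2 and 3, low 2 and 3, middle 1, and high 1, 2 and 3. For Ugt2b15 the difference at 150 mg/kg passed in 5 of 26 alternatives, among them the fit without middle 3 (adjusted p = 0.0113) and the slide-blocked fit (log2 1.06, adjusted p = 0.0161), with a range of 0.00933 to 0.306.

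Over the 12 arrays the log2 signals of Ugt2b15 and Ugt2b35 correlated at r = 0.996, as a description over arrays that share the dose groups. On every array the signal of Ugt2b15 lay below that of Ugt2b35, with log2 differences between -4.04 and -3.82 and a standard deviation of 0.066. A probe may collect signal from a near relative, and whether these 2 probes read separate transcripts was not tested. Among all genes tested, each was the one most like the other.

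Ugt1a6, the phenol-conjugating member, already rose at the lowest dose and showed no called step between doses. It stood at 2.07, 2.05 and 2.31 in controls, 3.23, 3.03 and 3.22 at 150 mg/kg, 3.30, 2.89 and 3.24 at 300 mg/kg, and 3.01, 2.89 and 3.15 at 600 mg/kg. The dosed groups overlapped one another, and none overlapped the controls. Against control Ugt1a6 rose 2.03-fold at 150 mg/kg (log2 1.02 ± 0.12, adjusted p = 0.0156), 2.0-fold at 300 mg/kg (adjusted p = 0.00223) and 1.83-fold at 600 mg/kg (log2 0.87, adjusted p = 0.000522).

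Between doses Ugt1a6 did not pass in any comparison. The log2 difference at 600 against 150 mg/kg was -0.15 (95% interval -0.41 to 0.12), and at 300 against 150 mg/kg it was -0.02 (95% interval -0.28 to 0.24). Its rises kept their size in the slide-blocked fit but were no longer past the threshold there, at 1.09 (adjusted p = 0.167), 1.06 (adjusted p = 0.114) and 0.84 (adjusted p = 0.168) for 150, 300 and 600 mg/kg. The calls at 300 and 600 mg/kg held under the other 25 alternatives, with adjusted p down to 0.000627 and 5.2e-05. At 150 mg/kg the call held in 19 of 26, and was lost without control 1 (adjusted p = 0.126), control 2 (0.0605), low 2 (0.0506) and low 3 (0.0858). Its adjusted p there ranged from 0.00146 to 0.167.

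Ugt2b37 was dim. Its probe was well above background on the 3 arrays at 600 mg/kg (-4.58, -4.65 and -4.30) and on no other array. The measured signals were -5.87, -6.32 and -6.62 in controls, -5.96, -6.66 and -5.32 at 150 mg/kg, and -5.13, -4.88 and -5.68 at 300 mg/kg. These values bound the level from above and have no firm order. Ugt2b37 was at least 1.33-fold higher at 600 mg/kg than in controls (group means -4.51 and -6.27, adjusted p = 0.00253), taken against the lowest signal well above background on each control array or the probe's own signal where higher. It entered the test solely through the group where it was bright, so its calls against any other group are no independent evidence.

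No fold is given for Ugt2b37 at 300 and 150 mg/kg against control, where both groups were below background (adjusted p = 0.0599 and 0.813). At 600 over 300 mg/kg it was at least 1.38-fold higher without passing (adjusted p = 0.141; with normexp background correction it passed, adjusted p = 0.00798, range over 25 alternatives 0.00798 to 0.333), and at 600 over 150 mg/kg at least 1.37-fold higher (adjusted p = 0.00841). In the slide-blocked fit the call at 600 mg/kg against control was lost (adjusted p = 0.0706; range of adjusted p over 25 alternatives 0.000232 to 0.0706). The unassigned probe named Ugt2b5 lay between -7.21 and -4.88 over the 12 arrays, was well above background on low 3 alone, at -4.96, and was not tested.

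Counted over the 4 genes that were well above background on all 12 arrays (Ugt2b7, Ugt1a6, Ugt2b15 and Ugt2b35), 4 of 4 rose at 600 mg/kg, where 18.2% of all tested genes rose and 34.6% passed in either direction. With Ugt2b37, whose call is built into its selection, 5 of 5 passed. At 300 mg/kg 4 of the 4 rose, against 8.31% of all genes higher and 13.1% in either direction. At 150 mg/kg 3 of the 4 rose, against 0.0578% higher and 0.101% in either direction (21 genes, of which 12 were higher). Ugt2b7, Ugt1a6 and Ugt2b35 are thus 3 of the 12 genes that rose at the lowest dose. Because the members were chosen with earlier results of these data known, the counts are no independent evidence that the family stands out. Ugt2b15 and Ugt2b35 are counted apart, although their probes may not be independent. None of the 4 fell in any comparison against control. The 3 dosed arrays all lay above the 3 control arrays for 4 of the 4 at each dose, as they did for 28.8%, 20.6% and 11% of all tested genes at 600, 300 and 150 mg/kg.

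The median log2 difference of the 4 genes was 0.94 at 150 mg/kg, 1.10 at 300 mg/kg and 0.96 at 600 mg/kg, beside 0.02, 0.03 and 0.00 over all tested genes. Between doses, 1 of the 4 (Ugt2b7) rose at 300 over 150 mg/kg, where 0.193% of all genes rose and 0.231% passed in either direction. At 600 over 300 mg/kg, 0 of the 4 passed by limma and 1 (Ugt2b7) had an unadjusted p under 0.05, where 9.63% of all genes rose and 22.3% passed in either direction. At 600 over 150 mg/kg 1 of the 4 (Ugt2b7) rose, against 13.7% of genes higher and 26.8% in either direction; in the slide-blocked fit Ugt2b15 and Ugt2b35 passed there too. Groups did not overlap, with the higher dose above, for Ugt2b7 alone among the 4 in each of these 3 comparisons, and for 15.6%, 12.5% and 23.7% of all genes at 600 over 300, 300 over 150 and 600 over 150 mg/kg.

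**Figure D2:**
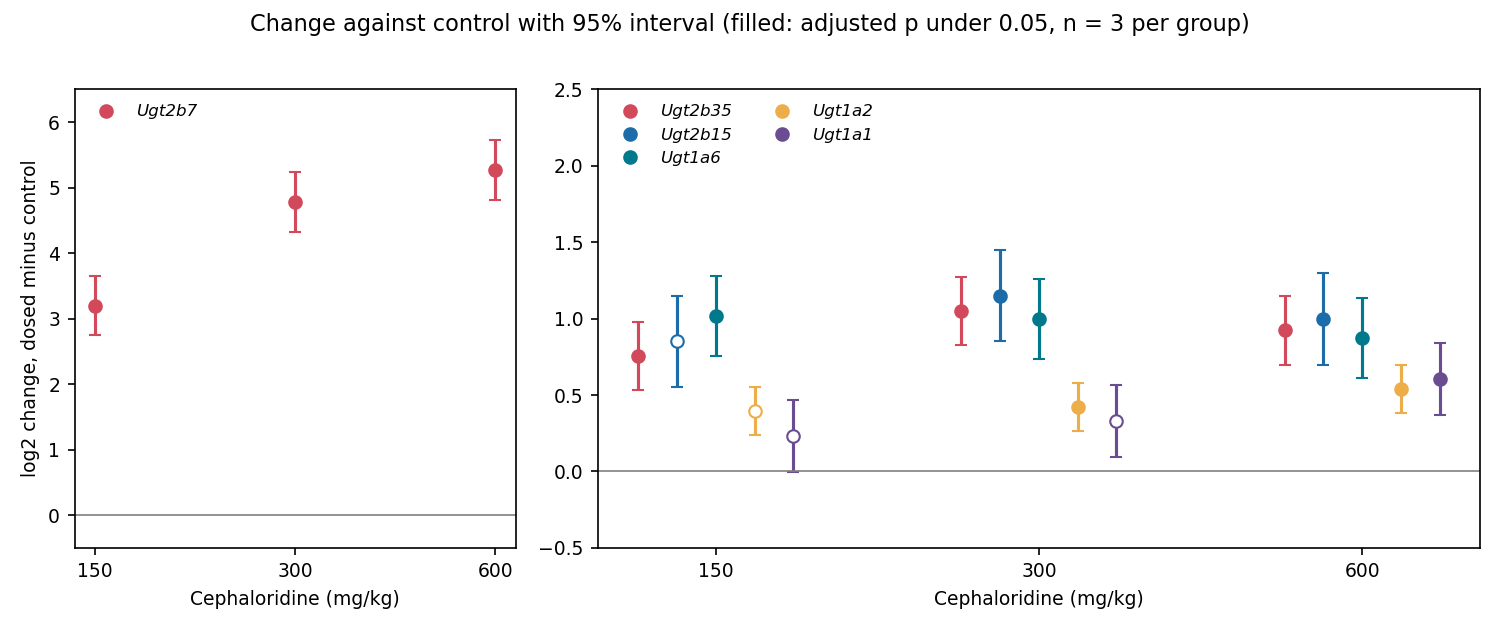
Log2 change against control (y axis) at each dose of cephaloridine in mg/kg (x axis), with 95% intervals from the limma fit on 3 animals per group, for Ugt2b7 (left panel) and 5 other glucuronosyltransferase genes (right panel, own range). Filled points passed an adjusted p of 0.05, and Ugt2b37 is not drawn because its controls were below background. Ugt2b7 climbs from 3.20 to 5.27, whereas Ugt1a6 stays between 0.87 and 1.02.

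Comparisons on a single slide carry no slide difference. On the slide of the controls, low 1 minus the mean of the 3 controls was 3.05 for Ugt2b7, 1.09 for Ugt1a6, 1.06 for Ugt2b15 and 0.90 for Ugt2b35 on the log2 scale. Middle 1 minus low 2 and middle 2 minus low 3 were 1.92 and 1.43 for Ugt2b7, 0.63 and 0.51 for Ugt2b15, and 0.50 and 0.48 for Ugt2b35. For Ugt1a6 these differences had opposite signs, 0.26 and -0.33. On the last slide the mean of the 3 high arrays minus middle 3 was 0.82 for Ugt2b7, 0.17 for Ugt2b15, 0.11 for Ugt2b35 and -0.22 for Ugt1a6. Ugt2b37 is left out here, because at least 1 side of each difference was below background. Each of these values rests on 1 array of at least 1 group and has no test.

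**Figure D3:**
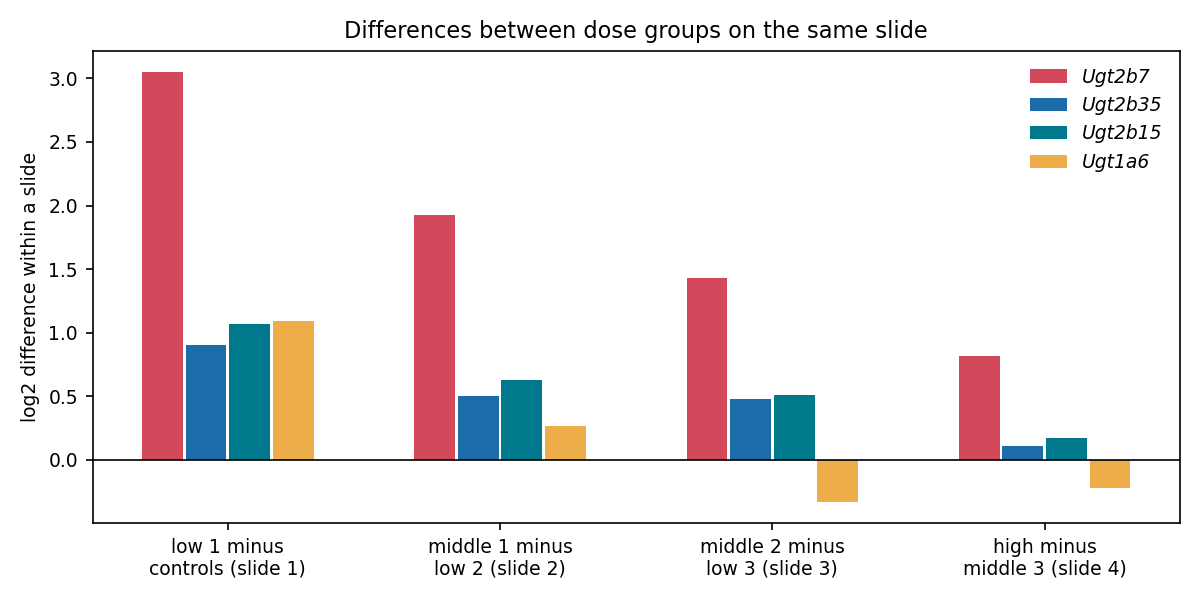
Log2 differences between dose groups on the same slide (y axis) for the 4 bright genes, with the 4 within-slide comparisons on the x axis and 1 bar per gene. Ugt2b7 is positive in all 4, at 3.05, 1.92, 1.43 and 0.82, and Ugt1a6 is negative in the last 2.

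Of the other glucuronosyltransferases, 3 were bright enough to be tested. Ugt1a1, the bilirubin-conjugating enzyme, rose 1.52-fold at 600 mg/kg (log2 0.61 ± 0.10, adjusted p = 0.00191), and lay 0.33 and 0.23 above control at 300 and 150 mg/kg without passing (adjusted p = 0.0656 and 0.496). In the slide-blocked fit its value at 600 mg/kg was 0.38 (adjusted p = 0.375). Ugt1a2 had a pair of probes. The brighter rose 1.45-fold at 600 mg/kg (adjusted p = 0.000452) and 1.34-fold at 300 mg/kg (adjusted p = 0.00798), and at 150 mg/kg it was 1.32-fold higher without passing (adjusted p = 0.0998).

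The dimmer probe of Ugt1a2 rose 1.65-fold at both 600 and 300 mg/kg and 1.61-fold at 150 mg/kg (adjusted p = 0.00045, 0.00372 and 0.0339, over all probes tested), so at the lowest dose the dimmer probe passed and the brighter did not. The calls of the brighter probe were lost in the slide-blocked fit at 600 and 300 mg/kg (adjusted p = 0.0878 and 0.148), and at 300 mg/kg also when the fit held the compared groups alone (0.0625). Ugt8, which makes galactosylceramide, did not pass at any dose (log2 -0.16 at 600 mg/kg, 95% interval -0.52 to 0.20). In the slide-blocked fit its value at 600 mg/kg was -0.999, also without passing (adjusted p = 0.08). Ugt2a1, Ugt2a3, Ugt2b, Ugt2b1, Ugt2b10 and Ugt1a9-ps were not tested; of these only Ugt2a1 was well above background on any array, on control 3 and low 3.

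The genes whose signals ran most like each bright member over the 12 arrays were named by Pearson correlation, as a description with no test. For Ugt2b7 they were Alas1 (r = 0.992), the first enzyme of heme synthesis, Pir (0.987), an iron-binding nuclear protein, Atad1 (0.983), an ATPase of the outer mitochondrial membrane, Rgs11 (0.974), a regulator of G protein signalling, and Sco1 (0.97), a copper chaperone of cytochrome oxidase. Their changes were smaller, from 1.14-fold in Sco1 to 3.97-fold in Atad1 at 600 mg/kg. Sco1 did not pass at 150 mg/kg (1.07-fold, limma adjusted p = 0.409). Alas1 rose 2.18-fold at 600 mg/kg, 2.11-fold at 300 mg/kg and 1.59-fold at 150 mg/kg (adjusted p = 5.73e-06, 5.85e-05 and 0.00785). Atad1 rose 3.97-fold at 600 mg/kg, 3.83-fold at 300 mg/kg and 2.73-fold at 150 mg/kg (adjusted p = 6.82e-06, 5.85e-05 and 0.00197).

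For Ugt1a6 the most alike were Gstm1 (r = 0.945), a glutathione transferase, Lipg (0.927), the endothelial lipase, the transcripts LOC316717 (0.919) and AW914016 (0.903), and Dstn (0.899), an actin-severing protein. Gstm1 rose 3.89-fold at 150 mg/kg, 4.99-fold at 300 mg/kg and 4.02-fold at 600 mg/kg (adjusted p = 0.00155, 6e-05 and 2.34e-05). The others named for Ugt1a6 rose less, from 1.1-fold (Dstn) to 1.41-fold (LOC316717) at 600 mg/kg. None of these others passed at 150 mg/kg (limma adjusted p = 0.0998 to 0.414). After Ugt2b35, Ugt2b15 was most like the unnamed probe A_44_P959647 (0.963), Syt17 (0.941), LOC363916 (0.939) and Sco1 (0.938). Ugt2b35 was next most like A_44_P959647 (0.975), LOC683813 (0.956), Ugt2b7 (0.948) and Sco1 (0.948).

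Of 11 measured genes that make or carry the sugar donor, UDP-glucuronic acid, 4 rose and 0 fell at 600 mg/kg (median log2 0.13, against 0.00 over all genes), 2 rose at 300 mg/kg and 0 passed at 150 mg/kg by limma (1 at an unadjusted p under 0.05). Over all tested genes 18.2% rose and 34.6% passed in either direction at 600 mg/kg, and 8.31% and 13.1% did so at 300 mg/kg. These shares stand beside the count of each list that follows, and no list was tested against them. Slc35d2, a nucleotide-sugar carrier, rose 1.59-fold at 600 mg/kg (adjusted p = 2.27e-05). Ugp2, which makes UDP-glucose, rose 1.27-fold (adjusted p = 0.000675), and Ugdh, which oxidises it to UDP-glucuronic acid, rose 1.2-fold (adjusted p = 0.00466). Slc35d1, the carrier of UDP-glucuronic acid into the endoplasmic reticulum, did not pass (log2 0.19, 95% interval -0.25 to 0.62) and was at -0.48 in the slide-blocked fit. That block also ended the calls of Ugp2 (log2 0.32, adjusted p = 0.202) and Ugdh (log2 0.22, adjusted p = 0.392).

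Of 10 measured genes listed around glucuronide hydrolysis and the making or breakdown of glucuronate, 7 fell and 0 rose at 600 mg/kg (median log2 -0.32). At 300 mg/kg 1 rose and 1 fell, and 0 passed at 150 mg/kg by limma (1 at an unadjusted p under 0.05). The list is broad, and its glucuronidase Gusb was not among the 7. Rgn, the gluconolactonase of the ascorbate branch, fell by 0.70 on the log2 scale (adjusted p = 0.00188), and by 1.43 in the slide-blocked fit. Miox, which cleaves inositol to glucuronate and is itself a proximal tubule marker, fell by 0.68 (adjusted p = 7.91e-05; 0.0917 in the slide-blocked fit). Gusb, the lysosomal glucuronidase, did not pass (log2 0.01, 95% interval -0.15 to 0.17) and was at 0.185 in the slide-blocked fit (adjusted p = 0.59). Of the 12 proximal tubule markers 10 fell at 600 mg/kg as well, and their part in the falls was not tested.

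Among 11 measured carriers of glucuronides and other organic anions, 2 rose and 5 fell at 600 mg/kg, 3 rose and 0 fell at 300 mg/kg, and 0 passed at 150 mg/kg by limma (2 at an unadjusted p under 0.05). Abcc2, the brush-border export pump for conjugates, stood at 1.26, 1.23 and 1.45 in controls, 1.83, 1.86 and 2.10 at 150 mg/kg, 3.50, 3.58 and 3.20 at 300 mg/kg, and 4.33, 4.22 and 4.39 at 600 mg/kg. Its groups did not overlap. It rose 8.0-fold at 600 mg/kg (adjusted p = 5.24e-07), 4.32-fold at 300 mg/kg (adjusted p = 2.62e-05) and was 1.53-fold higher at 150 mg/kg without passing (adjusted p = 0.0998). Abcc3, the basolateral pump, rose 1.2-fold at 600 mg/kg (adjusted p = 0.0055; log2 0.21, adjusted p = 0.4 in the slide-blocked fit). The uptake carriers Slc22a8 and Slc22a6, also proximal tubule markers, fell by 0.53 and 0.45 at 600 mg/kg (adjusted p = 0.00251 and 0.00713), and by 0.15 and 0.32 in the slide-blocked fit without passing (adjusted p = 0.668 and 0.482).

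Of 9 measured genes of sulfation, the other main conjugation route, 4 rose and 3 fell at 600 mg/kg, 3 rose and 0 fell at 300 mg/kg, and 0 passed at 150 mg/kg by limma (0 at an unadjusted p under 0.05). Sult4a1, a sulfotransferase of brain, rose by 0.74 and Sult1c3 by 0.57 on the log2 scale (adjusted p = 0.00842 and 0.00347), and the sulfate carrier Slc26a1 and the sulfotransferase Sult1c2 fell by 0.55 and 0.54 (adjusted p = 0.00047 and 0.000437). In the slide-blocked fit none of these 4 passed, and Sult4a1 turned to -0.24 (adjusted p = 0.623). The remaining values with the block were 0.68 for Sult1c3 (adjusted p = 0.17), -0.40 for Slc26a1 (0.254) and -0.30 for Sult1c2 (0.323).

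Among 14 measured transcription factors known to act on glucuronosyltransferase genes, 0 passed as higher and 3 as lower at 600 mg/kg by limma (5 at an unadjusted p under 0.05). At that dose 18.2% of all tested genes rose and 34.6% passed in either direction. Hnf4a, a nuclear receptor of tubule and liver, fell by 0.46 on the log2 scale (adjusted p = 0.000147). Nfe2l2, which encodes NRF2, did not pass (log2 0.18, 95% interval 0.03 to 0.34, adjusted p = 0.0665), but passed in 6 of 26 alternatives, among them the fit without middle 3 (adjusted p = 0.0477; range 0.0173 to 0.275). In the slide-blocked fit Nfe2l2 was at 0.32 (adjusted p = 0.275). Nr1i2, the pregnane X receptor, did not pass at 600 mg/kg (log2 0.05, adjusted p = 0.421) and rose by 0.30 at 300 mg/kg (adjusted p = 0.00746). The probes that stand for Ahr, Nr1i3, Foxa1 and Foxa2 were not well above background on any array.

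Known targets of these factors differed in how many rose. Of 24 measured NRF2 targets 16 rose at 600 mg/kg, 14 at 300 mg/kg and 3 (Nqo1, Gstm1 and Gstp1) at 150 mg/kg, with 0 falling. Over all tested genes 18.2%, 8.31% and 0.0578% rose at 600, 300 and 150 mg/kg. Hmox1, which degrades heme, rose 11.4-fold at 600 mg/kg (adjusted p = 2.35e-07) and did not pass at 300 or 150 mg/kg (log2 0.16 and 0.11). Srxn1, sulfiredoxin, rose 5.58-fold at 600 mg/kg (adjusted p = 6.82e-06) and by 1.08 on the log2 scale at 300 mg/kg (adjusted p = 0.00466). Nqo1, a quinone reductase listed as a target of both NRF2 and the aryl hydrocarbon receptor, rose 1.5-fold, 2.74-fold and 4.6-fold at 150, 300 and 600 mg/kg (adjusted p = 0.0444, 4.74e-05 and 6.01e-07).

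Of 4 measured aryl hydrocarbon receptor targets 3 (Nqo1, Cyp1b1 and Aldh3a1) rose at 600 mg/kg, and 1 (Nqo1) at 300 and at 150 mg/kg. Tiparp did not rise, with group means of 0.99 in controls and 0.95 at 600 mg/kg. Cyp1a1 and Cyp1a2 were on the array but did not pass the filter on dim probes. Cyp1b1 rose 2.81-fold at 600 mg/kg (adjusted p = 0.000311) and did not pass at 300 mg/kg (log2 0.05), and in the slide-blocked fit its value at 600 mg/kg was 0.80 (adjusted p = 0.141). Of 4 measured targets of the pregnane X and constitutive androstane receptors, Alas1 alone rose at each dose; 7 others on the array did not pass the filter on dim probes.

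**Figure D4:**
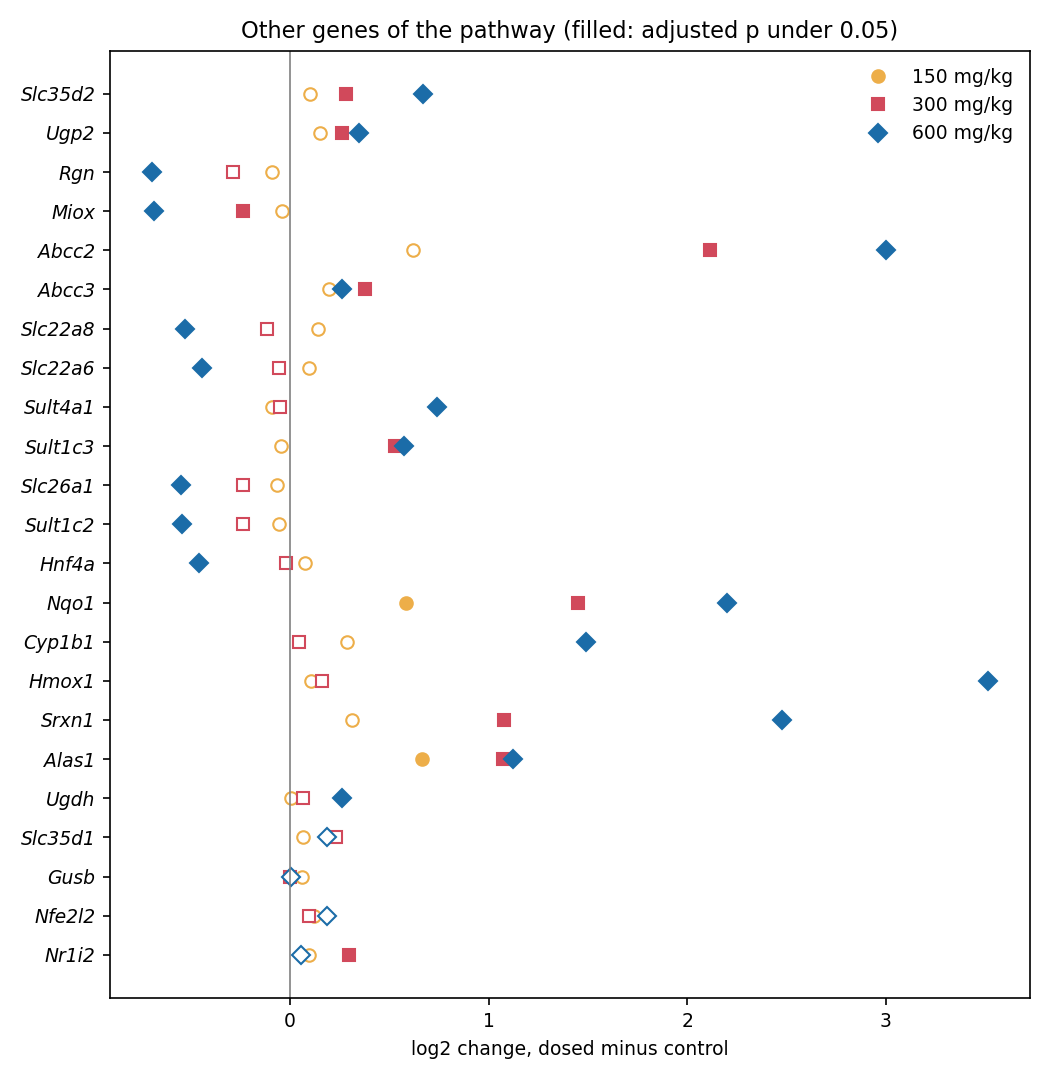
Log2 change against control (x axis) at 150, 300 and 600 mg/kg (circle, square and diamond) for named genes of the glucuronidation pathway and its regulators (y axis), from the limma fit on 3 animals per group. Filled symbols passed an adjusted p of 0.05. Abcc2 lies at 0.62, 2.11 and 3.00 and Alas1 at 0.67, 1.07 and 1.12, whereas Hmox1 lies near 0 at 150 and 300 mg/kg and at 3.51 at 600 mg/kg.

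Markers of other cell types were read beside these values. Over all tested genes 18.2% rose at 600 mg/kg and 8.31% at 300 mg/kg (34.6% and 13.1% in either direction). Of 7 measured macrophage markers 6 rose at 600 mg/kg and 0 at the lower doses, with summed signals of 31.3 to 37.1 in controls, 35.4 to 39.5 at 150 mg/kg, 37.8 to 42.8 at 300 mg/kg and 42.0 to 47.1 at 600 mg/kg. Of 5 measured hepatocyte markers 2 (Apoa2 and Apob) rose at 600 mg/kg and 1 (Apob) at 300 mg/kg, and Ttr, Serpina1 and Cps1 were not well above background on any array. Apoa2 was well above background on 0 control arrays and on all 3 arrays at 600 mg/kg, the only group through which it entered the test. Its call is therefore no independent evidence. The summed hepatocyte signal was 16.2 to 20.0 in controls, 18.4 to 20.6 at 150 mg/kg, 18.7 to 21.5 at 300 mg/kg and 18.5 to 22.5 at 600 mg/kg. Of 6 measured markers of the loop and distal tubule 3 rose at 600 mg/kg and 2 at 300 mg/kg, with sums of 343 to 370 in controls, 355 to 382 at 150 mg/kg, 375 to 410 at 300 mg/kg and 382 to 401 at 600 mg/kg, and Pvalb was not well above background on any array. Of 7 collecting duct markers 4 rose at 600 mg/kg and 1 at 300 mg/kg, with sums of 141 to 151 in controls, 150 to 156 at 150 mg/kg, 161 to 165 at 300 mg/kg and 159 to 167 at 600 mg/kg. Of 2 measured adrenal markers 1 rose at both 300 and 600 mg/kg, while Cyp11b1, Cyp21a1 and Cyp11a1 were not well above background on any array. In the other direction, 3 of 6 endothelial, 2 of 3 red blood cell, 1 of 4 podocyte and 1 of 1 measured intestinal markers fell at 600 mg/kg, and 1, 1, 1 and 0 of them at 300 mg/kg. At 150 mg/kg no marker of these 10 lists passed the test by limma, and 1, of the podocyte list, had an unadjusted p under 0.05. Of all tested genes 0.101% passed at this dose in either direction. The part of these cell types in the rises of the glucuronosyltransferases was not tested.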

How the data were processed

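Signals were measured on 12 Agilent 1-colour arrays, 1 per animal. The deposited intensity values are background-subtracted processed signals from Agilent Feature Extraction 9.1.3.1, per the file headers. The deposited value table holds a linear ratio: these signals with a floor of 5, divided by 1 constant per array, as a comparison of the values within 0.1% found; its centring rule is not stated, and its column medians lay between 1.003 and 1.005. Spots marked as outliers were left out and spots of a probe averaged, and log2 signals were set relative to the 75th percentile of the array. The log2 step was made here from the deposited intensities. No spot was saturated.

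The brightest probe stood for a gene. Genes whose probe was well above background throughout 1 or more groups were tested (20760 genes, 8 residual degrees of freedom) with limma 3.58.1 in R 4.3.3, on all 12 arrays and 4 group means, with Benjamini-Hochberg adjustment and a threshold of 0.05. The test was checked on simulated data. Names came from accessions (10726 probes), current symbols (5580) or older symbols (3727) in RefSeq tables, and 20977 probes stayed unnamed. Promoter sequences are from RefSeq, GRCr8, and all 5 genes matched. The number of arrays limits the precision.

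Named were all members, the measured relatives, at most 2 risers and 2 fallers per list at 600 mg/kg, a few defining pathway genes, and the 5 most alike genes per bright member. Members and lists were chosen with earlier results of these data known. The labels give 1 animal per sample. Alternatives covered scaling, background correction, the dim-probe filter, probe choice, the samples fitted, slide, scan day and replicate number as blocks, moderation, array weights and each array left out. One gene that the naming rule selects is not reported here.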

Additional observations from a re-analysis of the deposited data

How the results depend on the processing

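The 5 genes were called 5 times at 600 mg/kg against control, and 3 times with slide as a block; the 4 calls at 300 mg/kg stayed within 1.5 times of that count in all 26 alternatives. At 150 mg/kg the 3 calls became 0 when only the compared groups were fitted and 1 with scan day as a block, and 1 to 4 with 1 array left out. At 600 over 300 mg/kg normexp gave 1 call in place of 0. At 300 over 150 mg/kg the 1 call became 0 without the filter on dim probes, with only the compared groups, with the replicate block and with array weights, 3 with slide as a block, and 0 to 1 with 1 array left out.

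Over all genes, the 7191 calls at 600 mg/kg became 578 with slide as a block (5335 to 8201 with 1 array left out). The 2712 at 300 mg/kg became 906 without the filter, 268 with only the compared groups and 44 with slide as a block (714 to 2760). The 21 at 150 mg/kg became 42 with normexp, 42 with trended and robust moderation, 133 with array weights, 12 without the filter, 9 with the replicate block, 8 with scan day, 7 with slide and 0 with only the compared groups (3 to 46). The 4632 at 600 over 300 mg/kg became 3007 without the filter, 2525 with only the compared groups and 1996 with slide (3137 to 4547). The 48 at 300 over 150 mg/kg became 28 with a median shift, 29 with the authors' value table, 14 without the filter, 0 with only the compared groups, 18 with the replicate block, 79 with slide, 31 with scan day, 105 with trended and robust moderation and 11 with array weights (11 to 90). Where limma on only the compared groups gave 0 calls, 2544 genes at 150 mg/kg against control and 2084 at 300 over 150 mg/kg had an unadjusted p under 0.05, 4 and 1 of the 5 genes among them.

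Signs turned only for differences that had not passed, and for Sult4a1. At 300 over 150 mg/kg Ugt1a6 was 0.01 with a median shift, 0.012 with the value table and 0.021 with array weights, and Ugt1a2 was -0.018 with quantile normalization and -0.01 with array weights. With slide as a block the differences at 600 over 300 mg/kg were 0.17 for Ugt2b15, 0.11 for Ugt2b35 and -0.14 for Ugt8, and those at 600 mg/kg over control -0.24 for Sult4a1 and -0.48 for Slc35d1. With 1 array left out, Ugt1a6 at 300 over 150 mg/kg ranged from -0.10 to 0.11, Ugt1a2 there from -0.017 to 0.054, Ugt2b37 at 150 mg/kg from -0.039 to 0.63, Ugt8 at 150 mg/kg from -0.18 to 0.009 and at 600 over 150 mg/kg from -0.17 to 0.054, and Gusb at 600 mg/kg from -0.039 to 0.032. The cause was not tested. The replicate numbers name samples only: 1 of 18 same-numbered pairs deviated together at r over 0.1 (range -0.225 to 0.116), so the replicate block is no paired analysis. Single-gene results otherwise kept their direction and side of the threshold in 1755 comparisons with the alternatives, lost the call in 51 and gained it in 31. Dim signals limit Ugt2b37, whose low values are bounds.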
